A study of Mus musculus with 47 samples.

Results

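This report describes 9 mouse genes of inhibitory synaptic transmission, selected by their Ensembl identifiers in the raw counts: Gad1, Gad2, Slc32a1, Slc6a5, Slc6a9, Glra1, Glra2, Glra3 and Glrb. They were 9 of the 35032 genes listed in either brain region, and all 9 were listed in both. RNA-seq counts came from brainstem (23 libraries) and hippocampus (24 libraries) of male C57BL/6 mice at 12 months of age. TG mice were a homozygous colony carrying a human transgene expressed in neurons under the Thy1 promoter, and WT mice were a parallel colony of the same outcross, so genotype and colony cannot be told apart. From 5 weeks of age the mice received a standard diet (SD) or a high-fat diet (HFD). Each region thus had WT-SD, WT-HFD, TG-SD and TG-HFD groups of 6 libraries, except brainstem WT-SD with 5, and each library of a group came from another mouse. The brainstem tissue was the posterior medulla, and the hippocampus was taken whole.

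Inhibitory neurons release GABA, glycine or both onto ligand-gated chloride channels. GABA is made from glutamate by glutamate decarboxylase, both transmitters enter synaptic vesicles through the same vesicular transporter, and glycine is recovered by plasma membrane transporters of neurons and glia. Glycinergic transmission is a feature of the medulla and spinal cord, where it shapes motor and respiratory output, whereas fast inhibition in the hippocampus is mainly GABAergic.

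The promoters of 4 members are shown, chosen in part by their regional differences. They are Gad1 and Gad2, which encode the decarboxylases and moved in opposite directions, Slc32a1, which serves both transmitters, and Slc6a5, which had nearly all its reads in brainstem. Each sequence is the 250 bases before the first RefSeq start on GRCm38.p6, all on the plus strand, with every E-box (CANNTG, a palindrome read the same way on both strands) in capitals. RefSeq promoters were matched for 8 of the 9 genes, all but Glra1.
Gad1 promoter, chr2:70561879-70562128: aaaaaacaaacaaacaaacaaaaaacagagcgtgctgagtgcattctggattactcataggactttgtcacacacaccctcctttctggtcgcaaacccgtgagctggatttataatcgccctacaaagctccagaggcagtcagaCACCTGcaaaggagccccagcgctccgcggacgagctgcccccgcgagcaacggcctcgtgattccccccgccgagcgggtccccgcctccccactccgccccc
Gad2 promoter, chr2:22622077-22622326: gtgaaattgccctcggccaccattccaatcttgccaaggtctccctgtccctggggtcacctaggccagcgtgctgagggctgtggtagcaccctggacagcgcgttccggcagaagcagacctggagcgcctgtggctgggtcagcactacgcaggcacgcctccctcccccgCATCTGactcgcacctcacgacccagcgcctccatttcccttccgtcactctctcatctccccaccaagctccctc
Slc32a1 promoter, chr2:158610508-158610757: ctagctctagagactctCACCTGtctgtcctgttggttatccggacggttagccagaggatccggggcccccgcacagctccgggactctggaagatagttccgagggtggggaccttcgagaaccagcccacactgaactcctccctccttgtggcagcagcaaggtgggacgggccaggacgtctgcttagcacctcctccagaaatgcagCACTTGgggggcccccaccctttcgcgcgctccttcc
Slc6a5 promoter, chr7:49910049-49910298: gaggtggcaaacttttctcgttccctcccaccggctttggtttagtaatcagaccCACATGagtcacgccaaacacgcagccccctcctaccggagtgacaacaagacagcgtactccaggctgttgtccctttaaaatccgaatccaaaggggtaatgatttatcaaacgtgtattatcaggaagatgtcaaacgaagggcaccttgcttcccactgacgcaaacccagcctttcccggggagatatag
Gad1, Gad2 and Slc6a5 each held 1 E-box in this window and Slc32a1 held 2, and 66.2% of 32851 mouse promoter windows of the same length held at least 1. The Slc6a5 window also held 1 match to TGANTCA, searched on both strands, which 6.75% of windows had. The Gad1 window held 1 match to TATAAA, searched in the same way, which 12.4% had. TAATTA and TGACGTCA were searched too and had no match in the 4 windows. A second RefSeq start of Slc6a5, not printed, had 2 E-boxes, 7 CG dinucleotides and no TGANTCA match in its window. CG dinucleotides numbered 17 in Gad1, 13 in Gad2, 12 in Slc32a1 and 11 in Slc6a5, against a median of 6 over all windows. These matches describe the letters of the windows and were not tested for function.

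Library totals ranged from 10020784 to 15078812 counts in brainstem and from 11945971 to 17328447 in hippocampus. All 5 caudal hindbrain markers, which were Hox genes, were lower in hippocampus, with a summed level of 15.4 to 118 CPM (counts scaled to a common library size after TMM normalization) in brainstem and 0 to 0.144 CPM in hippocampus, and all 5 hippocampal markers were higher in hippocampus. Brainstem libraries differed in neighbouring tissue, with summed cerebellar markers between 17 and 109 CPM and choroid plexus markers between 12.5 and 2940 CPM.

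Levels of different genes were compared as CPM per kilobase of annotated exons. The length was that of all annotated exons together, not of the transcript expressed. Orders and ratios between genes depend on it. In mean CPM without it, brainstem Glra3 (21.2) was above Glra2 (18.3) and Gad1 (215) was above Gad2 (202). In brainstem the order was led by Glrb, the β subunit that anchors glycine receptors at synapses, at 92.2 ± 6.58 CPM per kb (SD, n = 23). Slc6a5, the neuronal glycine transporter that supplies vesicles with glycine, followed at 51.9 ± 7.64 CPM per kb, and both genes were above the next in all 23 libraries. Gad2 (34.3 ± 4.16), Slc32a1 (32.1 ± 6.25) and Gad1 (28.2 ± 2.64 CPM per kb) lay close together, with Gad2 above Slc32a1 in 15 of 23 libraries and Slc32a1 above Gad1 in 18. Slc6a9, the glycine transporter found mainly on glia, was at 16.1 ± 1.79 CPM per kb. The ligand-binding α subunits were lowest, with Glra1 at 9.75 ± 3.72, Glra2 at 5.82 ± 0.679 and Glra3 at 2.30 ± 0.513 CPM per kb.

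In hippocampus Glrb (42.5 ± 2.99 CPM per kb, SD, n = 24) and Gad1 (42.4 ± 2.40 CPM per kb) were not separated, since Glrb was higher in 12 of 24 libraries. Gad2 (26.3 ± 2.72) and Slc32a1 (14.6 ± 2.01 CPM per kb) followed in every library. Glra2 (3.29 ± 0.468) and Slc6a9 (2.93 ± 0.330 CPM per kb) changed places in 6 of 24 libraries, and Glra3 was at 0.548 ± 0.123 CPM per kb. Glra1 and Slc6a5 were at the floor of detection, with reads in 9 and 11 of 24 libraries and at most 3 and 7 reads in any of them.

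**Figure D1:**
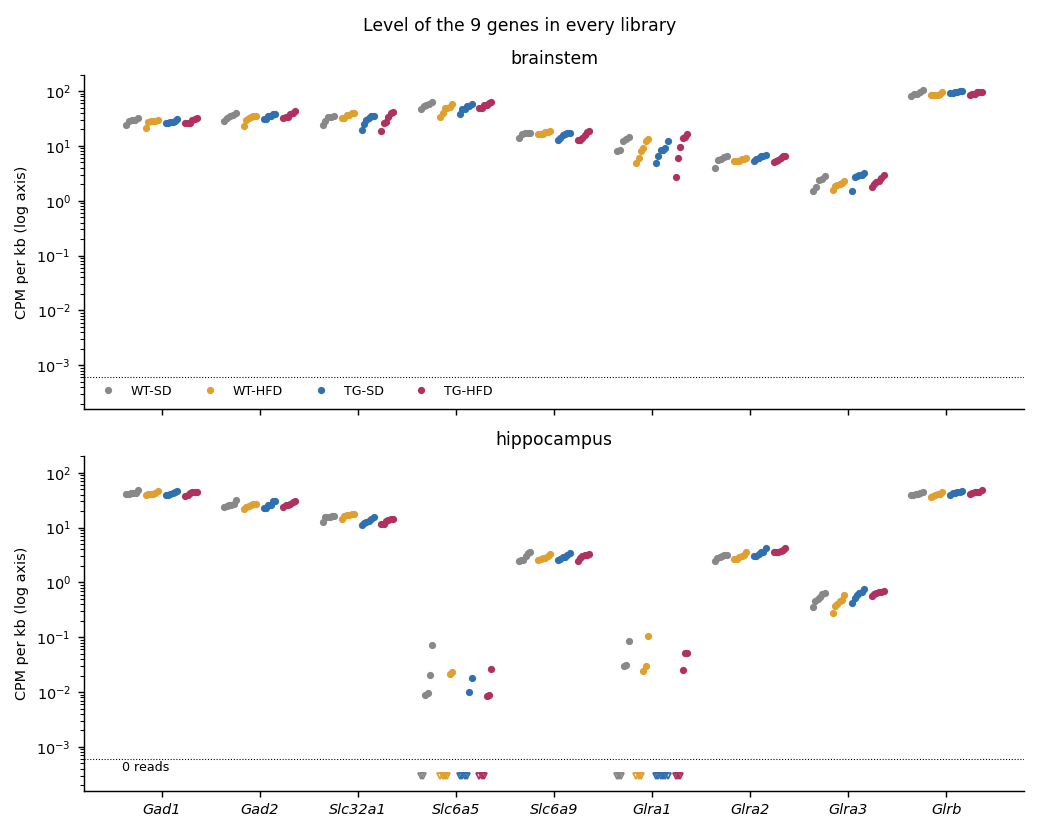
CPM per kilobase of exon (log axis) of the 9 genes in each of the 47 libraries, coloured by genotype and diet group, with brainstem above and hippocampus below; open triangles under the dotted line are libraries with 0 reads. Slc6a5 and Glra1 have reads in every brainstem library and 23 and 15 reads in total in hippocampus, while Gad1 is higher in hippocampus.

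The regions were compared next, with the 8 groups in 1 edgeR model. All 9 members differed between regions by the rule used throughout, an adjusted p of at most 0.05 with a change of 0.3 or more on the log2 scale in either direction. By it 61.3% of all 13993 tested genes differed. Of the members 1 was higher in hippocampus (29.8% of all genes) and 8 were lower (31.6%). The CPM of 7 members did not overlap between regions, against 35.3% of all genes, and Gad2 and Glra2 overlapped. The median log2 fold change was -1.14 over the members and -0.02 over all genes, and 2 members with almost no hippocampal reads enter that median as fitted values. RNA of whole tissue was measured, so fewer cells of a type and less RNA per cell cannot be told apart. Whether libraries of both regions were prepared together is not given in the sources used here.

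Of the synthesis genes, Gad1 was higher in hippocampus. It had 289 to 366 CPM there (median 324) and 159 to 251 CPM in brainstem (median 219), a log2 difference of 0.58 ± 0.0345 (SE, adjusted p = 4.69e-21). Gad2 went the other way, with 128 to 184 CPM in hippocampus (median 154) and 138 to 251 CPM in brainstem (median 203), and a log2 fold change of -0.39 ± 0.0453 (adjusted p = 8.58e-11). The per-kilobase ratio of Gad1 to Gad2 was accordingly 0.826 ± 0.0562 (SD, n = 23, range 0.757 to 0.955) in brainstem and 1.62 ± 0.103 (n = 24, range 1.46 to 1.86) in hippocampus, without overlap.

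Slc32a1, the vesicular transporter for GABA and glycine, was at 52.8 to 115 CPM in brainstem (median 93.3) and at 30.7 to 50.1 CPM in hippocampus (median 40.7). The groups of libraries did not overlap, and the log2 difference was -1.14 ± 0.0632 (SE, adjusted p = 3.67e-22). Relative to Gad1 per kilobase, Slc32a1 was at 1.14 ± 0.223 (SD, n = 23) in brainstem and 0.345 ± 0.0540 (n = 24) in hippocampus.

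Both glycine transporters were lower in hippocampus, and Slc6a5 had the largest difference of the 9 members. Slc6a5 had 110004 reads over the 23 brainstem libraries, or 246 to 461 CPM in each (median 389), and 23 reads over the 24 hippocampal libraries. After scaling for depth the ratio was 5750, with a 95% counting interval of 3830 to 9080. Slc6a9 was detected in every library of both regions, with 65.3 to 95.7 CPM in brainstem (median 85.7) and 12.6 to 18.5 CPM in hippocampus (median 14.8), a log2 difference of -2.46 ± 0.0477 (SE, adjusted p = 2.08e-41). Exons of Slc6a9 overlap Ccdc24 and B4galt2 on the opposite strand, and those of Slc32a1 and Glra1 overlap antisense transcripts with 2 and 5 reads in all, and whether counting used strand is not given in the sources used here.

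The receptor subunits were all lower in hippocampus, to unequal degrees. Glra1, the adult α subunit mutated in startle disease, had 7007 reads in brainstem and 15 in hippocampus, a ratio of 562 with a counting interval of 341 to 1000. Glra3 had 13.8 to 29.2 CPM in brainstem (median 21.0) and 2.51 to 6.92 CPM in hippocampus (median 5.27), with a log2 difference of -2.08 ± 0.0808 (SE, adjusted p = 1.95e-28). Glra2, the subunit that prevails in the immature nervous system, overlapped between regions at 12.3 to 21.2 CPM (median 18.5) and 7.85 to 13.4 CPM (median 10.1), with a log2 fold change of -0.83 ± 0.0467 (adjusted p = 7.28e-22). Glrb had 376 to 493 CPM in brainstem (median 431) and 167 to 231 CPM in hippocampus (median 197), with a log2 fold change of -1.12 ± 0.0270 (adjusted p = 2.39e-37). Glra2 was thus the leading α subunit in hippocampus, at 6.30 ± 1.63 times Glra3 per kilobase (SD, n = 24), while in brainstem Glra1 exceeded Glra2 per kilobase in 20 of 23 libraries. Without the length scaling, mean hippocampal CPM was 10.4 for Glra2 and 5.04 for Glra3.

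**Figure D2:**
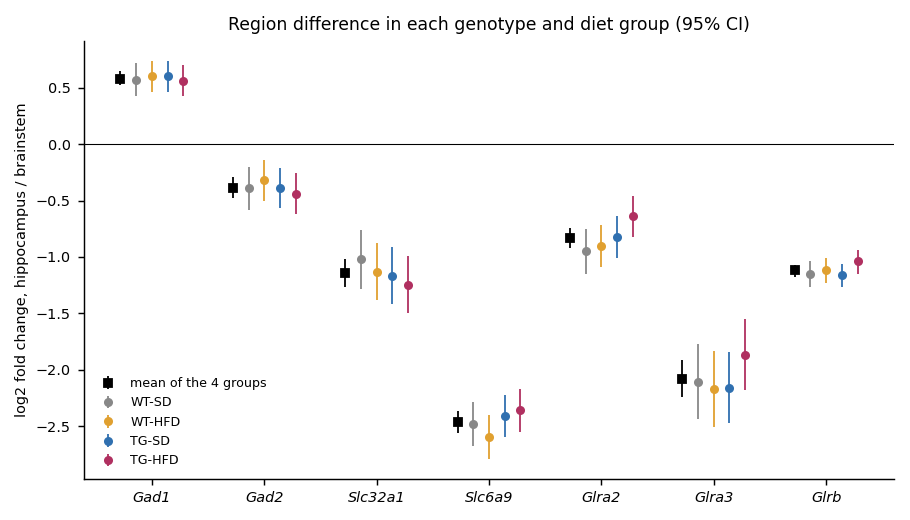
Log2 fold change of hippocampus over brainstem with its 95% confidence interval for the 7 genes with reads in every library, as the mean of the 4 groups (black squares) and within each genotype and diet group (circles). Gad1 lies above 0 and the other 6 lie below 0 in all 4 groups.

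The regional differences held within each genotype and diet group. Gad1 ranged from 0.56 to 0.60 and Gad2 from -0.44 to -0.32 on the log2 scale over the 4 groups, and Slc32a1 ranged from -1.25 to -1.02. Among the receptors, Glra2 ranged from -0.95 in WT-SD to -0.64 in TG-HFD and Glra3 from -2.17 in WT-HFD to -1.87 in TG-HFD. The test of whether the region difference depended on genotype called none of the 9 members, with 0.0214% of all genes called. The member closest to the threshold was Glra2, whose region difference was 0.20 higher in TG than in WT on the log2 scale (95% CI 0.01 to 0.38, adjusted p = 1 by edgeR).

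Other genes of inhibitory synapses differed between regions in both directions. Of 5 genes of the gephyrin scaffold and its adhesion partners, which hold glycine and GABA-A receptors at synapses, 3 were higher in hippocampus and 0 lower (Slitrk3 1.80, Nlgn2 0.69 and Lhfpl4 0.39, log2 fold change), while Gphn itself had 0.23, under the fold threshold. Both GABA-B receptor genes were higher (Gabbr2 1.38, Gabbr1 0.52). Of 5 tested genes of GABA uptake and breakdown 2 were lower, the glial GABA transporter Slc6a11 (-1.79) and GABA transaminase Abat (-1.17). Of the chloride transporters, the importer Slc12a2 was lower (-2.06) and the neuronal exporter Slc12a5 had 0.13.

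Genes of glycine supply and cleavage were split, with 2 of 6 higher and 3 lower. Gldc, the glycine-cleaving decarboxylase, was higher by 3.75 in log2 fold change and Shmt1 by 1.16, and of the lower genes Gcsh had -0.78 and Amt had -0.48. All 4 tested transcription factors of hindbrain inhibitory lineages were lower (Lbx1 -8.42, Pax2 -4.50, Lhx1 -4.50, Gata2 -1.12), and both tested forebrain interneuron factors were higher (Dlx1 10.1, Lhx6 6.05). Mean hippocampal levels were 0.00984 CPM for Lbx1, 0.343 for Pax2 and 0.203 for Lhx1. In brainstem Dlx1 averaged 0.0127 CPM and Lhx6 0.223 CPM. These genes passed the count filter through the other region only, so the filter fixed their direction. Oligodendrocyte markers moved with region too, with 6 of 6 lower in hippocampus and mean summed levels of 16300 CPM in brainstem and 3760 CPM in hippocampus, and their part in the members' differences was not tested.

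Within each region, genotype was compared on either diet, diet in either genotype, and the interaction was tested, in an edgeR model with 4 surrogate variables (estimated axes of unwanted variation between libraries). In brainstem none of the 9 members was called in any of these 5 contrasts. By the same rule the share of all 13340 genes called was 0.142% for TG-SD against WT-SD, 0.0525% for TG-HFD against WT-HFD, 0% for WT-HFD against WT-SD, 0.0075% for TG-HFD against TG-SD and 0.0075% for the interaction. In hippocampus Slc6a5 and Glra1 were under the minimum mean count of 50, and none of the other 7 was called, where the shares of all 13272 genes were 0.098% for TG-SD against WT-SD, 0.226% for TG-HFD against WT-HFD, and 0% for both diet contrasts and the interaction. DESeq2 with the same surrogate variables also called 0 members in each of the 10 tests.

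Unadjusted p values of 0.05 or less were reached in brainstem by 2 members in TG-SD against WT-SD (10.5% of all genes), 0 in TG-HFD against WT-HFD (5.59%), 1 in WT-HFD against WT-SD (5.43%), 1 in TG-HFD against TG-SD (6.91%) and 1 in the interaction (4.83%). In hippocampus they were reached by 2 members in TG-SD against WT-SD (9.08% of all genes) and by 0 in TG-HFD against WT-HFD (11.3%), WT-HFD against WT-SD (6.41%), TG-HFD against TG-SD (7.08%) and the interaction (5.98%). For DESeq2 the counts were the same apart from 3 members in brainstem TG-SD against WT-SD. The diet contrasts share their groups with the genotype contrasts.

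**Figure D3:**
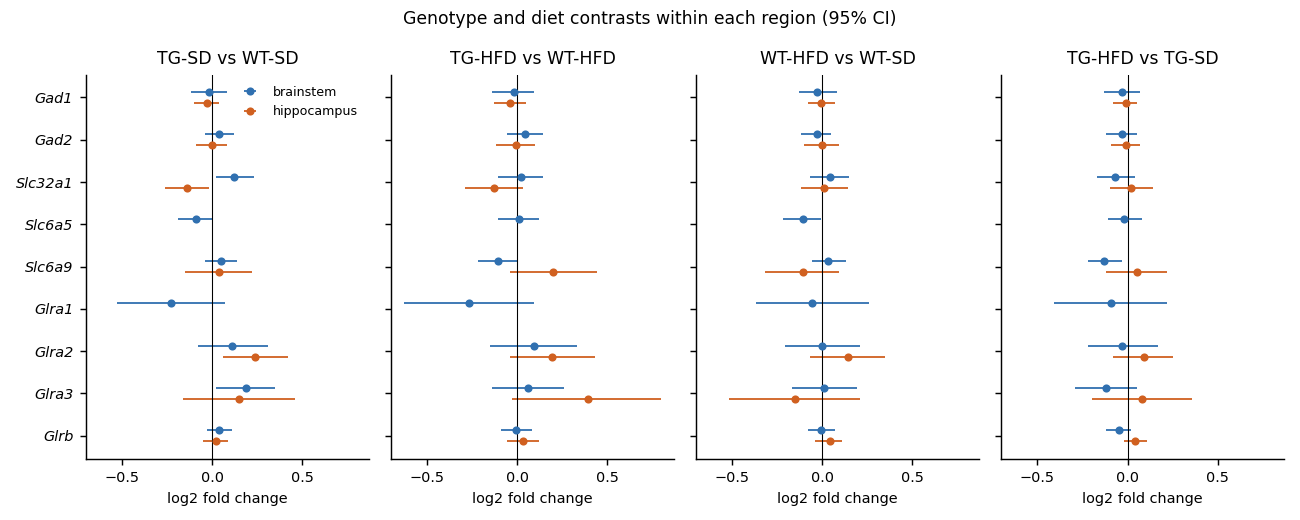
Log2 fold change with its 95% confidence interval for each gene in the 4 genotype and diet contrasts, in brainstem (blue) and hippocampus (orange); Slc6a5 and Glra1 have no hippocampal point. The intervals of Gad1, Gad2 and Glrb are narrow around 0, and those of Glra1 in brainstem and Glra3 in hippocampus are the widest.

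For the GABA-synthesis genes these intervals were narrow, and groups overlapped throughout. Gad1 in brainstem had 186, 214, 230, 230 and 243 CPM in WT-SD, 159 to 232 (median 220) in WT-HFD, 198 to 233 (median 211) in TG-SD and 198 to 251 (median 217) in TG-HFD. All 4 groups overlapped, and the log2 fold change of TG-SD against WT-SD was -0.02 (95% CI -0.12 to 0.08, adjusted p = 0.909). In hippocampus the Gad1 medians lay between 315 and 334 CPM, and TG-HFD against WT-HFD gave -0.04 (95% CI -0.13 to 0.05, adjusted p = 0.810). Gad2 in brainstem had 168, 190, 210, 218 and 230 CPM in WT-SD, 138 to 205 (median 192) in WT-HFD, 179 to 223 (median 209) in TG-SD and 189 to 251 (median 211) in TG-HFD. It gave 0.04 (95% CI -0.06 to 0.14, adjusted p = 0.971) in brainstem and -0.01 (95% CI -0.12 to 0.10, adjusted p = 0.982) in hippocampus for TG-HFD against WT-HFD.

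Slc6a5 in brainstem had 336, 390, 406, 424 and 448 CPM in WT-SD, 246 to 423 (median 351) in WT-HFD, 280 to 412 (median 364) in TG-SD and 350 to 461 (median 408) in TG-HFD. The WT-HFD group reached lowest, but all 4 groups overlapped. WT-HFD against WT-SD gave a log2 fold change of -0.11 (95% CI -0.22 to -0.01, adjusted p = 0.896), and the interaction gave 0.10 (95% CI -0.05 to 0.25, adjusted p = 0.993). With 4 surrogate variables but no filter on low counts the interaction of Slc6a5 was called (0.39, adjusted p = 0.0481 by edgeR), where 0.112% of 33139 genes were. With the filter and 0 surrogate variables it was 0.42 (adjusted p = 0.612). Slc6a9 in brainstem had 67.3 to 87.9 CPM in TG-SD (mean 80.0) and 65.3 to 94.5 CPM in TG-HFD (mean 79.1), with medians of 83.1 and 77.5 CPM. TG-HFD against TG-SD gave -0.13 (95% CI -0.22 to -0.03, adjusted p = 0.572) with 4 surrogate variables and -0.01 with none.

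Glra1 was the most variable member in brainstem, with a coefficient of variation of 38.2% over 23 libraries against 7.13% for Glrb. It had 19.7, 20.4, 30.2, 32.9 and 34.9 CPM in WT-SD, 12 to 32.3 (median 20.7) in WT-HFD, 11.7 to 29.6 (median 20.3) in TG-SD and 6.47 to 40.1 (median 28.1) in TG-HFD. TG-HFD held both the lowest and the highest library. TG-SD against WT-SD gave a log2 fold change of -0.23 (95% CI -0.53 to 0.07, adjusted p = 0.604), so a change of this size could not be told from the spread between mice. Glra3 in brainstem gave 0.19 (95% CI 0.02 to 0.35, adjusted p = 0.391) in that contrast. Slc32a1 gave 0.12 (95% CI 0.02 to 0.23, adjusted p = 0.384) there, against the direction of its group means (82.3 CPM in TG-SD and 87.0 in WT-SD), and with 0 surrogate variables it gave -0.07 (95% CI -0.39 to 0.24, adjusted p = 0.931).

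Slc32a1 in brainstem had 67.3, 79.3, 93.4, 94.4 and 100 CPM in WT-SD, 89.1 to 114 (mean 102) in WT-HFD, 55.6 to 98.6 (median 85.9) in TG-SD and 52.8 to 115 (median 85.7) in TG-HFD. The WT-HFD libraries lay within the upper part of the TG-HFD range, and TG-HFD against WT-HFD gave 0.02 (95% CI -0.11 to 0.14, adjusted p = 0.992). Glra3 had 13.8, 16.7, 21.8, 23.3 and 26.5 CPM in WT-SD and 14.0 to 29.2 (median 26.3) in TG-SD, with 14.5 to 21.0 (median 17.9) in WT-HFD and 16.8 to 27.7 (median 20.7) in TG-HFD. Glra2 had 12.3, 17.5, 17.9, 19.7 and 20.8 CPM in WT-SD and 16.4 to 19.0 in WT-HFD, 16.4 to 21.2 in TG-SD and 16.1 to 20.7 in TG-HFD, with all groups overlapping.

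Glrb, the subunit shared by synaptic glycine receptors, was among the least variable members. It had 376, 418, 419, 444 and 493 CPM in brainstem WT-SD, 392 to 442 (median 397) in WT-HFD, 431 to 473 (median 450) in TG-SD and 402 to 458 (median 430) in TG-HFD. The groups overlapped, and TG-SD against WT-SD gave 0.04 (95% CI -0.03 to 0.11, adjusted p = 0.767). In hippocampus its medians were 192 CPM in WT-SD, 189 in WT-HFD, 203 in TG-SD and 211 in TG-HFD, and TG-HFD against WT-HFD gave 0.03 (95% CI -0.06 to 0.12, adjusted p = 0.857). Slc6a9 in hippocampus had medians of 14.3, 14.5, 14.8 and 15.8 CPM in the same order of groups, and gave 0.20 (95% CI -0.04 to 0.44, adjusted p = 0.562) for TG-HFD against WT-HFD.

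In hippocampus the comparison of TG-HFD with WT-HFD depended on the model for 3 members. Slc32a1 had 40.8 to 50.1 CPM in WT-HFD (median 47.6) and 32.7 to 40.6 CPM in TG-HFD (median 37.4), with 35.4 to 45.6 (median 44.1) in WT-SD and 30.7 to 43.4 (median 35.8) in TG-SD. It was 1 of 7 tested members whose 2 HFD groups did not overlap, against 4.15% of all genes. With 4 surrogate variables its log2 fold change was -0.13 (95% CI -0.29 to 0.03, adjusted p = 0.560), and with none it was -0.35 (95% CI -0.51 to -0.19, adjusted p = 0.00693).

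Glra2 had 8.29 to 11.1 CPM in WT-HFD (median 9.33) and 11.1 to 13.1 CPM in TG-HFD (median 11.5), touching at the edge. Its log2 fold change was 0.19 (95% CI -0.04 to 0.43, adjusted p = 0.560) with 4 surrogate variables and 0.32 (95% CI 0.14 to 0.50, adjusted p = 0.0212) with none. Glra3 had 2.51 to 5.40 CPM in WT-HFD (median 3.95) and 5.15 to 6.34 CPM in TG-HFD (median 5.98), and gave 0.39 (95% CI -0.03 to 0.80, adjusted p = 0.488) and 0.56 (95% CI 0.25 to 0.87, adjusted p = 0.0213). These 3 of 7 members were called with 0, 1 or 2 surrogate variables and none with 3 or 4, while the share of all genes called fell from 3.88% with 0, 4.63% with 1 and 4.78% with 2 to 0.226% with 4. They were also called with only the 2 groups in the model, where 4.48% of genes were. In TG-SD against WT-SD, Slc32a1 gave -0.14 (95% CI -0.26 to -0.02, adjusted p = 0.456) and Glra2 gave 0.24 (95% CI 0.06 to 0.42, adjusted p = 0.346) with 4 surrogate variables.

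**Figure D4:**
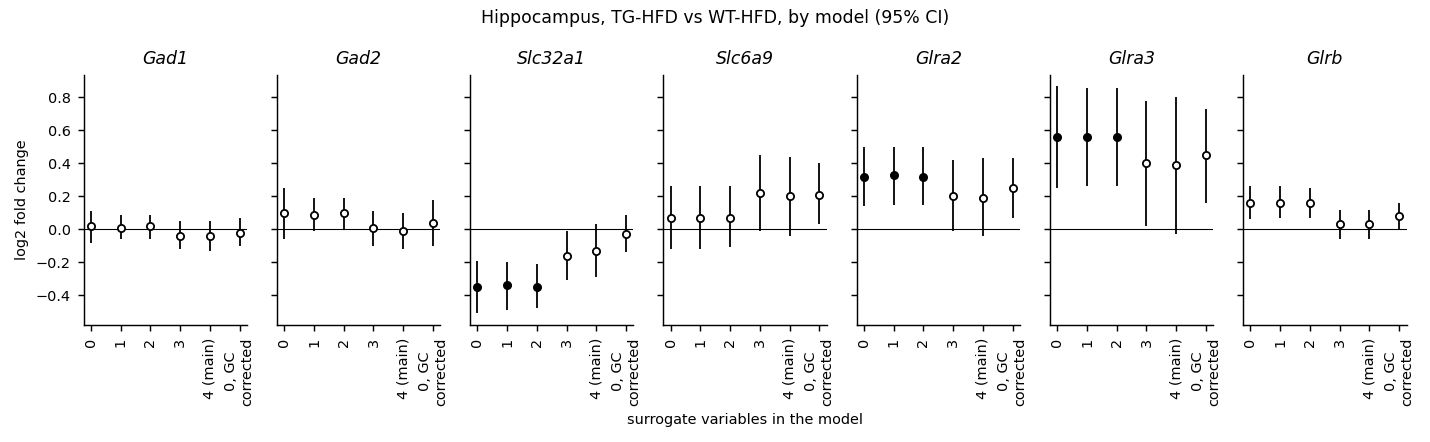
Log2 fold change of TG-HFD over WT-HFD in hippocampus with its 95% confidence interval for 7 genes, with 0 to 4 surrogate variables in the model and with a GC correction in their place; filled points passed both thresholds. Slc32a1, Glra2 and Glra3 are filled with 0, 1 and 2 surrogate variables and open with 3, 4 or the GC correction.

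The same libraries differed in how counts depended on GC content. The GC slope of a library, the log2 deviation from the mean library per 10 percentage points of transcript GC, had a median of 0.118 (range -0.0197 to 0.173) in hippocampal WT-HFD and -0.0554 (range -0.125 to 0.00523) in TG-HFD. Slc32a1 has the highest transcript GC of the members (61.9%), and Glra3 (35.2%), Glrb (40.8%) and Glra2 (41.3%) the lowest. With group means removed, Slc32a1 followed the slope with Pearson's r = 0.947 over 23 brainstem libraries and 0.734 over 24 hippocampal libraries, and Glrb with -0.792 and -0.650, where both measures of a point come from the same library. Glra3 had r = -0.678 in brainstem and -0.358 in hippocampus, and Glra2 had -0.268 and -0.213. In the same order Slc6a9 had 0.718 and 0.227, Gad1 had 0.0851 and -0.554, and Gad2 had -0.0457 and -0.614. With a GC correction in place of surrogate variables, TG-HFD against WT-HFD in hippocampus gave -0.03 for Slc32a1 (95% CI -0.14 to 0.09, adjusted p = 0.885), 0.25 for Glra2 (95% CI 0.07 to 0.43, adjusted p = 0.188) and 0.45 for Glra3 (95% CI 0.16 to 0.73, adjusted p = 0.113).

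**Figure D5:**
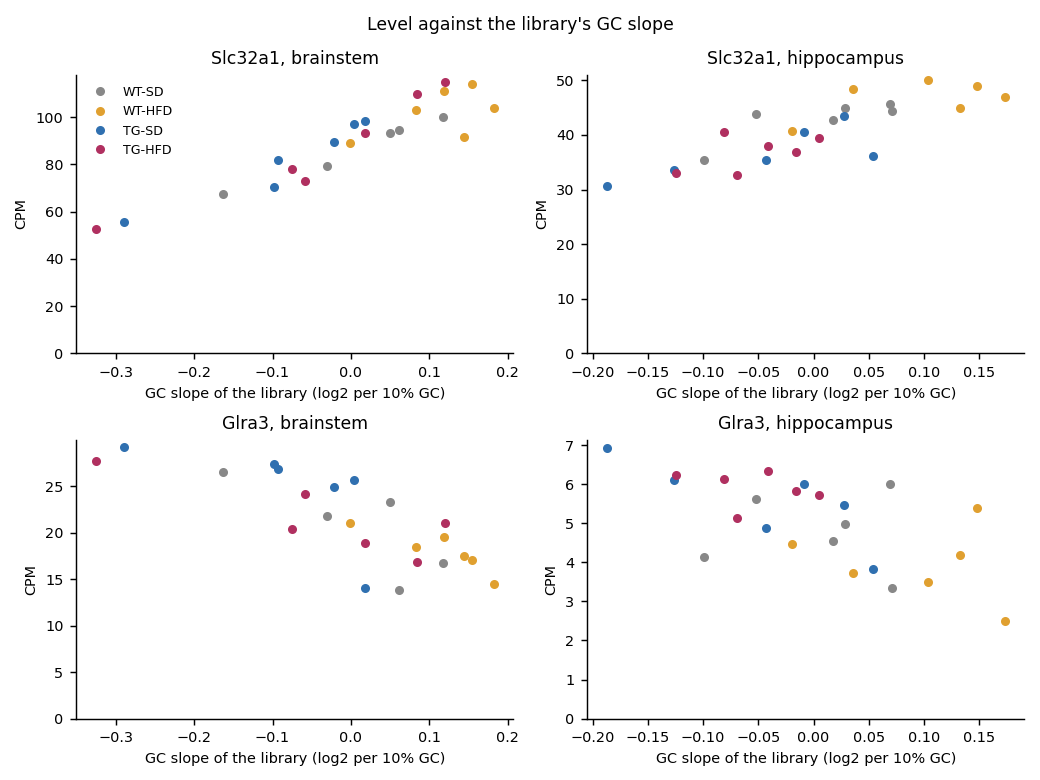
CPM of Slc32a1 (above) and Glra3 (below) against the GC slope of each library (log2 per 10 percentage points of GC), in 23 brainstem and 24 hippocampal libraries coloured by group. Slc32a1 rises along the slope in both regions and Glra3 falls along it in brainstem, and the hippocampal WT-HFD libraries lie mostly to the right of TG-HFD.

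Members also varied together between libraries of a region. With group means removed, Gad1 and Gad2 had a Pearson's r of 0.897 over 23 brainstem libraries and 0.813 over 24 hippocampal libraries. In brainstem Slc6a5 followed Gad2 (r = 0.872) and Glra1 (r = 0.694). Slc32a1, which loads the product of both decarboxylases, was instead most like Slc6a9 (r = 0.749) among the members and ran against Glrb (r = -0.780). Points of these correlations share library, depth and base composition. The GC slope had r = 0.947 with Slc32a1, 0.718 with Slc6a9 and -0.792 with Glrb over the same brainstem libraries. Its part in the likeness of these members was not tested.

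Among all tested genes, the closest to Slc6a5 in brainstem was Kcna2 (r = 0.961) and the closest to Glra1 was Kcna1 (r = 0.946), both voltage-gated potassium channel subunits of axons. Gad1 was closest to Kcnc2 (0.900), a potassium channel subunit of fast-spiking neurons, and then to Gad2. Glra3 was closest to Gabra3 (0.915), a GABA-A receptor subunit. Slc32a1 was closest to Nosip (0.962), Slc6a9 to Agpat3 (0.924), Gad2 to Zfyve9 (0.953), Glrb to Tmem30a (0.951) and Glra2 to Bok (0.769), in each case over 23 libraries with group means removed. In hippocampus the closest gene to Glra3 was Homer2 (0.735), that to Slc6a9 was Pknox2 (0.746) and that to Glra2 was Blvra (0.779), over 24 libraries.

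None of the genes of the partner lists was called for genotype, diet or interaction in either region. Summed levels of the gephyrin and adhesion genes had r between -0.645 (Glrb) and 0.761 (Slc6a9) over the 23 brainstem libraries. Slc6a5 had 0.739, Slc32a1 0.686, Gad2 0.658, Glra1 0.647 and Gad1 0.64, while Glra2 had -0.404 and Glra3 -0.356. Over the 24 hippocampal libraries r lay between -0.193 (Glra2) and 0.482 (Gad1) for the tested members, with 0.473 for Gad2. Oligodendrocyte markers ran against Gad2 (r = -0.757) and Slc6a5 (r = -0.617) in brainstem. Caudal hindbrain markers, of the tissue taken here, had r between -0.405 (Gad1) and 0.693 (Glra3) in brainstem. Marker lists of other tissues also moved with some members there. Hippocampal markers had r between -0.596 (Glrb) and 0.751 (Slc6a9). Their brainstem sum (mean 75.0 CPM) was mostly Prox1 (32.7) and Wfs1 (32.2), with Fibcd1 at 4.95, Neurod6 at 4.27 and Dsp at 0.931 CPM. Whether this sum traces tissue outside the dissection was not tested. The mean summed level of the thalamic markers was 31.2 CPM in brainstem and 28.8 CPM in hippocampus. Thalamic markers had r = 0.674 with Gad1, 0.509 with Gad2, -0.566 with Glra2, -0.591 with Glra3 and -0.502 with Glrb, and choroid plexus markers had r = 0.551 with Gad1 and 0.481 with Gad2. Cerebellar markers had r between -0.216 (Slc6a9) and 0.306 (Gad1) over the 9 members. The part of tissue make-up in the members' levels was not tested.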

How the data were processed

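Gene expression was measured by poly(A) RNA-seq in brainstem and hippocampus. The authors aligned reads with STAR 2.7.9a to GRCm39 and deposited raw counts per gene and library. Some genes, the transgene among them, are not reported here and were left out of the lists after the data were seen. The counting method is not given in the sources used here. Symbols, exon lengths and GC content came from GENCODE vM21 (GRCm38) by Ensembl identifier, and a gene absent from 1 region was set to 0.

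Genes averaging 50 counts or more over a region's libraries were tested with edgeR 4.0.16 (R 4.3.3, TMM, quasi-likelihood test) and sva 3.50.0, with Benjamini-Hochberg adjustment over all tested genes. For the region model that average had to be reached in at least 1 region. The region model used no surrogate variables. Changes passed at an adjusted p of 0.05 and an absolute log2 fold change of 0.3. DESeq2 1.42.0, other normalizations, filters, surrogate variables, a loess GC offset, the replicate number as a block and leaving out each library were alternatives. Depth limits precision at low counts, and intervals on read ratios cover counting error only. On simulated counts 99% of 200 genes with a log2 change of 1 were recovered for TG-HFD against WT-HFD in brainstem, 100% in hippocampus, and 100% between regions. These fits held 0 surrogate variables, and in that order 11, 5 and 0 unchanged genes were called. Recovery of smaller changes, or with 4 surrogate variables, was not simulated. Numbers in the labels name replicates and were not shown to pair libraries, and the main region model treated all 47 libraries as independent. Of the partner lists, genes called for genotype or diet and up to 4 per list with the largest regional change could be named (Gphn was added after its value was seen), and up to 3 genes most like each member. Members and lists were chosen with earlier results of these data known.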

Additional observations from a re-analysis of the deposited data

Results flagged for a closer look

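Over the 71 groups of 5 or 6 libraries and members checked, 10 held a library whose gap to its nearest neighbour was past Dixon's 95% critical value, where about 1 in 20, or 3.5, would be expected by chance. In brainstem, Gad1 was lowest in WT-HFD replicate 1 at 159 CPM (others 209 to 232), Slc6a9 was lowest in WT-SD replicate 6 at 71.9 CPM (others 85.5 to 89.5), Glra3 was lowest in TG-SD replicate 7 at 14.0 CPM (others 24.9 to 29.2), and Glrb was highest in WT-HFD replicate 8 at 442 CPM (others 392 to 407). In hippocampus, Gad1 was highest in WT-SD replicate 7 at 366 CPM (others 312 to 328) and Slc32a1 was lowest in WT-SD replicate 6 at 35.4 CPM (others 42.8 to 45.6).

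The other 4 lay among the few hippocampal reads of Slc6a5 and Glra1. Slc6a5 was highest at 0.513 CPM, or 7 reads, in WT-SD replicate 4 and at 0.186 CPM in TG-HFD replicate 6. Glra1 was highest at 0.204 CPM in WT-SD replicate 8 and at 0.251 CPM in WT-HFD replicate 3. With 4 surrogate variables and the count filter, no genotype effect differed between diets past its test for any member. Without that filter the brainstem interaction of Slc6a5 was called. No region difference depended on genotype in the model of both regions, which had no surrogate variables.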

How the results depend on the processing

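The region contrast called all 9 members in the same direction in each of 54 alternatives, with log2 fold changes under leaving out 1 library of 0.57 to 0.60 for Gad1 and -0.40 to -0.37 for Gad2. For Slc6a5 and Glra1 that direction was fixed, since they passed the count filter through brainstem only. Within regions, 0 members were called in every contrast and alternative, apart from the following. For TG-HFD against WT-HFD in hippocampus, 3 members were called with 0, 1 or 2 surrogate variables and with only the 2 groups compared (Slc32a1 -0.35, -0.34, -0.35 and -0.35, Glra2 0.32, 0.33, 0.32 and 0.32, Glra3 0.56 in each, log2 fold change). With 0 surrogate variables and each of the 24 libraries left out in turn, chosen after seeing the data along with 3 surrogate variables and the GC correction beside 4 surrogate variables, 1 to 3 were called: 1 without TG-HFD replicate 4 or WT-HFD replicate 3, and 2 without WT-HFD replicate 4 or WT-HFD replicate 7. Slc32a1 remained called in all 24 of these fits (-0.39 to -0.31). With no filter on counts, and again 4 surrogate variables, 1 member was called in the brainstem interaction, Slc6a5 (0.39, adjusted p = 0.0481, with 0.112% of 33139 genes called). The cause was not tested. The Slc6a5 interaction had no call in the other alternatives but moved with the surrogate variables, at 0.42 with 0, 0.41 with 1, 0.32 with 2 and 0.14 with 3, against 0.10 with 4. Over the 23 fits that left out 1 library it ranged from -0.01 (without WT-SD replicate 6) to 0.13 with 4 surrogate variables and from 0.34 to 0.49 with 0. With 4 surrogate variables and 1 library left out, TG-HFD against WT-HFD in hippocampus ranged from 0.16 (without WT-SD replicate 6) to 0.61 (without WT-SD replicate 3) for Glra3, from 0.13 to 0.25 for Glra2 and from -0.19 to -0.08 for Slc32a1, with no call.

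With the replicate number as a block, the members called were 0 in each contrast within regions and 9 between regions, fitted there to the 34 libraries whose numbers occur in both, and 0 for the region difference by genotype. Same-numbered libraries of different groups did not all deviate together (10 of 26 pairs in brainstem, 16 of 36 in hippocampus and 11 of 17 pairs between regions had a correlation over 0.1). Among pairs with different numbers the counts were 61 of 172, 43 of 180 and 31 of 121. Between regions the median correlation was 0.127 with the same number and -0.0254 with different numbers. Whether a number marks the same mouse in both regions was not settled. Of 1024 member values within regions under the 13 alternatives other than leaving out a library, 190 had another sign than the main value. The fits of only the 2 groups compared are among these alternatives. Low counts limit Glra1 and Slc6a5 in hippocampus, where 3 reads over all libraries amount to 0.00863 CPM.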
